A study of Mus musculus with 17 samples.

Results

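The comparison of epileptic with control hippocampus, both treated with the guide sgLacZ, took 11 of the 17 libraries of the series, 6 labelled epileptic and 5 labelled control, and was made on unstranded read counts over all genes. Groups and replicate numbers were those of the labels. Kainic acid, an agonist of glutamate receptors, had been injected into the amygdala of the epileptic mice. It provokes status epilepticus, and mice that survive it develop seizures of their own, which makes it a model of epilepsy of the temporal lobe. Control mice were sham controls (sham control Ctrl-dCas9A in the study, against epileptic Ctrl-dCas9A). What all 11 adult mice shared was dCas9A, a nuclease-dead Cas9 joined to the VP64 activator under a doxycycline-responsive promoter, carried by adeno-associated viruses injected into the hippocampus. They also shared sgLacZ, whose target is a bacterial gene, the transactivator rtTA under the Camk2a promoter, which favours excitatory neurons, and doxycycline. Mice without virus were not analysed here, so every difference below is one between epileptic and sham tissue that both carried the virus and the guide. The 6 epileptic libraries with the guide sgKcna1 also entered the filter on low counts, the scaling and the estimate of the spread. With the 11 libraries alone 16977 genes were tested, of which 1850 were higher and 1195 lower at an adjusted p under 0.05, against 1278 and 662 of 17615 with all 17. Nothing in the labels ties a library to an animal or culture beyond its replicate number, and p-values measure the spread between these libraries.

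In temporal lobe epilepsy the hippocampus is known to lose pyramidal cells and interneurons, to gain reactive astrocytes and microglia, and to change the ion channels and transmitter receptors of the neurons that remain. Neuronal firing is paid for by oxidative phosphorylation, whose complexes are built from genes of both the nucleus and the mitochondrion. The libraries were made from whole tissue, in which fewer cells of a type and less RNA per cell cannot be told apart.

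Between 15365455 and 28311328 reads per library lay in genes. The share of reads that were unmapped was 18.6% ± 5.01 (SD, n = 6) in the epileptic and 24.1% ± 3.38 (SD, n = 5) in the control libraries. An exact permutation test gave p = 0.0736 (two-sided), or 0.118 once adjusted for 8 library measures. It spread widely within the epileptic group, with 11.0% in library 4, 15.8% in 7, 17.2% in 9, 19.5% in 6, 23.8% in 8 and 24.1% in 5. The share of mapped reads that mapped to several places, which was not tested as a share of all reads, separated the groups. It was 5.06% ± 1.06 (SD, n = 6) against 6.71% ± 0.160 (SD, n = 5), with all 6 epileptic libraries below the controls (exact permutation p = 0.00433, the smallest that 462 splits allow, adjusted 0.0346). The sum of the forward and reverse counts over the unstranded count, which rises where genes overlap on opposite strands, was 1.10 ± 0.00999 (SD, n = 6) against 1.11 ± 0.00224 (SD, n = 5) (exact permutation p = 0.173, adjusted 0.198). Both Xist and the summed Y-linked genes Ddx3y, Eif2s3y, Kdm5d and Uty were above 3 CPM in 1 epileptic library, 8, and 1 control library, 16. Tissue of a single mouse is not known to hold these transcripts together. Control library 23 lay just under that limit, with Xist at 44.4 CPM and the Y-linked genes at 2.67 CPM. Epileptic libraries 4, 5, 6 and 7, in which Xist also prevailed, had 0.0353 to 0.356 CPM of the Y-linked genes. Xist exceeded the Y-linked genes in epileptic libraries 4, 5, 6 and 7 and in controls 16 and 23. The reverse held in the other libraries, so sex read in this way was not balanced between the groups. CPM are reads divided by the total of the library, scaled by edgeR's TMM factors and given per megaread. The CPM of Xist and the Y-linked genes above were taken without that scaling. The floor of 3 reads lay between 0.106 and 0.195 CPM. The label hippocampus held. The 12 dentate granule cell genes summed to between 569 and 739 CPM in every library and the 18 genes of CA pyramidal cells to between 1418 and 1584 CPM. C1ql2, a dentate marker, was at 85.3 CPM or more in every library.

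Of 17615 genes tested, 1278 (7.26%) were higher and 662 (3.76%) lower in epileptic than in control hippocampus at an adjusted p under 0.05 (edgeR quasi-likelihood test, Benjamini-Hochberg adjustment), which is what rose, fell and the threshold mean below. The smallest adjusted p was 0.0310, so the calls lay close together just under the threshold, and the median log2 fold change of all genes was 0.02. The calls were not stable to the loss of a library: without epileptic library 4, 7 or 9, or control 13, 14, 16 or 23, no gene passed. Between 2531 and 3147 genes were higher and between 2016 and 2646 lower in those 7 fits at an unadjusted p under 0.05. Among the others the count was 734 higher (4.19%) and 218 lower (1.25%) without epileptic 6, 1571 (8.91%) and 833 (4.72%) without epileptic 8, and 411 (2.3%) and 108 (0.604%) without control 15. Without epileptic 5 it grew to 2828 (16%) and 2698 (15.3%). No gene named here was called in more than 4 of these 11 fits, while in none of them did a fold change of a called gene that was named turn its sign. With the percent of unmapped reads as a covariate 252 genes were higher (1.43%) and 176 lower (0.999%) over all 17 libraries. With that covariate none passed over the 11 alone. With sex, read from Xist against Y-linked genes, as covariate 389 were higher and 127 lower. Another fit left out the 5 libraries of the series, 2 of them in these groups, with both Xist and Y-linked genes above 3 CPM. It called 1909 higher and 1139 lower, and it kept control 23.

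The genes with the largest changes among those whose groups did not overlap (352 genes or 2% of those tested did not overlap and were higher, 422 or 2.4% lower) are given first. Megf6 (chromosome 4, 154170704 to 154275721 in GRCm38.p6), a secreted protein with EGF-like repeats, ranged from 4.07 to 10.8 CPM with a median of 6.84 in epileptic libraries and had 1.92, 2.65, 2.95, 3.33 and 3.33 CPM in the controls, a log2 fold change of 1.33 (SE 0.27, adjusted p = 0.0312). Iglon5 (chromosome 7, 43472901 to 43490211), a neuronal adhesion molecule of the immunoglobulin superfamily, had 10.8 to 31.5 CPM (median 22.9) against 7.07, 8.40, 9.58, 9.99 and 10.7 CPM (log2 fold change 1.31, SE 0.26, adjusted p = 0.0312). Tap1 (chromosome 17, 34187556 to 34197225), which carries peptides into the endoplasmic reticulum for class I antigen presentation, had 5.84 to 13.4 CPM (median 10.98) against 3.07, 3.79, 4.93, 4.95 and 5.12 CPM (log2 fold change 1.18, SE 0.37, adjusted p = 0.0471). Megf6 and Iglon5 were lowest in epileptic library 5 and highest in 7, whereas Tap1 was highest in library 5 and lowest in 6. Nkain1, an interactor of the sodium pump, Polr3a, a subunit of RNA polymerase III, Thada, Sh3rf3 and Ift122, a part of the transport system of cilia, also rose, by between 0.96 and 1.87 on the log2 scale.

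Among the falls, Id2 (chromosome 12, 25093799 to 25096092), an inhibitor of basic helix-loop-helix factors, ranged from 57.99 to 164 CPM with a median of 101 against 167, 199, 203, 228 and 234 CPM in the controls (log2 fold change -0.95, SE 0.24, adjusted p = 0.0333). G0s2 (chromosome 1, 193272160 to 193273188), an inhibitor of triglyceride lipase, had 6.47 to 12.4 CPM (median 7.92) against 12.7, 14.5, 15.4, 15.5 and 17.3 CPM (log2 fold change -0.84, SE 0.17, adjusted p = 0.0312). Rasl11a, a small GTPase (chromosome 5, 146845071 to 146847726), had 5.85 to 9.24 CPM (median 7.61) against 11.1, 11.7, 14.01, 14.2 and 17.4 CPM (log2 fold change -0.83, SE 0.19, adjusted p = 0.0320). For Id2 and G0s2 the epileptic library nearest to the controls was 5 and the farthest was 4, and for Rasl11a these were 5 and 9. Gm17066, Tmem212, Lpar4, a receptor for lysophosphatidic acid, 4933421E11Rik (Lrif1 in RefSeq) and C130026L21Rik completed the set, with log2 fold changes between -1.57 and -0.82. Kcna1, the potassium channel gene that the guide of the third group targets, did not pass in this comparison (log2 fold change -0.22, SE 0.49, adjusted p = 0.779).

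**Figure D1:**
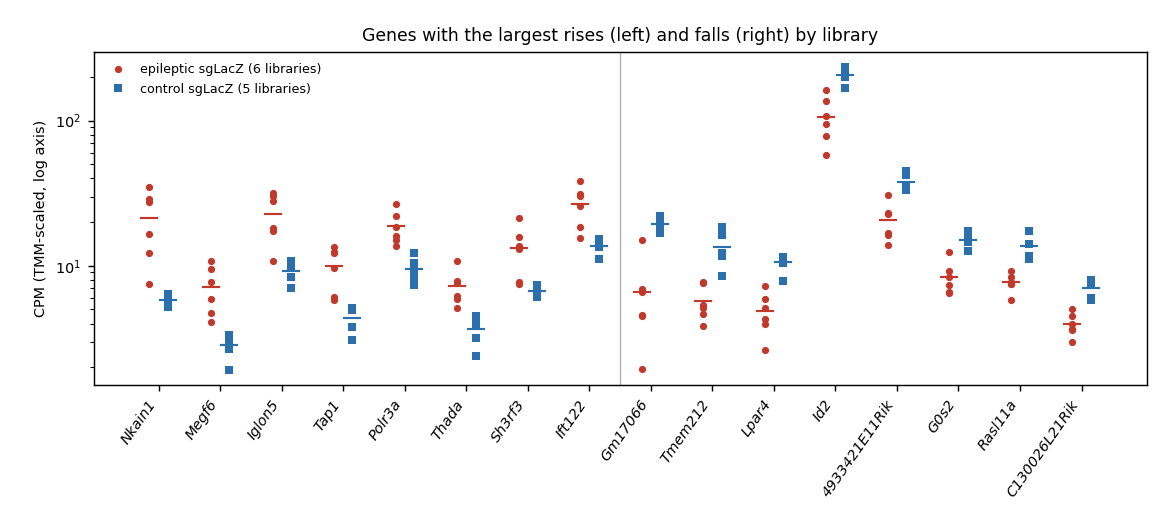
CPM (log axis) of the 8 genes with the largest rises and the 8 with the largest falls, circles for the 6 epileptic and squares for the 5 control sgLacZ libraries, with bars at the means. No circle crosses the squares of the same gene, since absence of overlap was part of the choice, and the circles of most genes spread more widely than the squares.

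Genes were also read as 41 lists, 18 of cell types or tissues and 23 of pathways. Each is described by its members past the threshold and by the median log2 fold change of the members tested. Among all genes 7.26% were higher and 3.76% lower, and the count of each list is to be read beside these shares. The lowest median outside the small list of red blood cell genes belonged to the nuclear genes of oxidative phosphorylation, followed by the cytosolic ribosomal proteins, the proteasome and the genes of the mitochondrial genome. The highest belonged to the choroid plexus, the brain extracellular matrix, antigen presentation and the sodium, calcium and HCN channels. The plot of list medians shows how much of each median remained when each library's trend over transcript length and GC content was taken out, an alternative chosen after seeing the data.

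**Figure D2:**
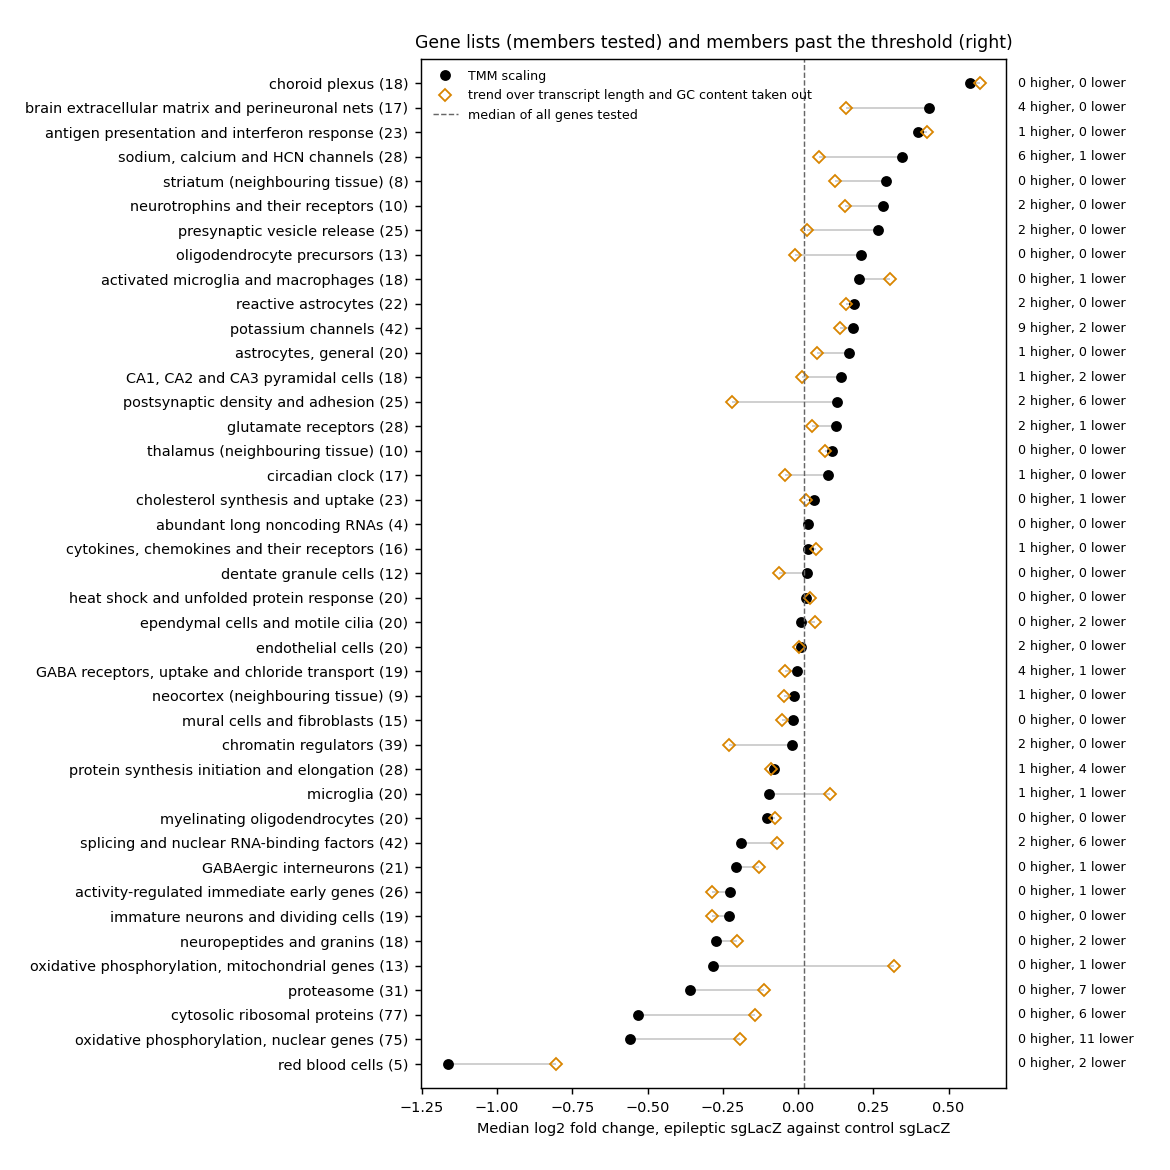
Median log2 fold change of the tested members of 41 gene lists, epileptic against control sgLacZ, with TMM scaling (filled circles) and with the trend over transcript length and GC content taken out (open diamonds), beside the median of all genes (dashed line) and the number of members past the threshold. The nuclear oxidative phosphorylation genes moved from -0.56 to -0.19 and the ribosomal proteins from -0.53 to -0.14, while antigen presentation stood at 0.40 and 0.43.

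Of the 75 nuclear genes of oxidative phosphorylation, 11 fell and none rose, 69 had a negative log2 fold change, and the median was -0.56 (0.02 over all genes). At an unadjusted p under 0.05, 56 of them were lower and 2 higher, where 15.9% of all genes were lower and 18.8% higher. The called members came from complexes I to V. Ndufs3, a core subunit of complex I, ranged from 110.3 to 228 CPM with a median of 157 in epileptic libraries and had 208, 234, 237, 246 and 271 CPM in controls, a log2 fold change of -0.54 (SE 0.15, adjusted p = 0.0365). Its promoter is shown because Ndufs3 was the only member of this list that also passed with transcript length and GC content taken out, at -0.27 (adjusted p = 0.0400). The stretch runs from 100 bases before to 20 after the start of Ndufs3 (chr2:90904702-90904821, minus strand, GRCm38.p6, RefSeq), and capitals mark the letters ACTTCCGG, a motif of the ETS family, searched on both strands:
Ndufs3: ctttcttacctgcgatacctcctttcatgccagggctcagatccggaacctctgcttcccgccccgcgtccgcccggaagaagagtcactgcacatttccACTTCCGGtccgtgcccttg
These letters stood in 831 of 27025 promoter windows of this length (3.07%), in 5 of 63 windows of the oxidative phosphorylation list (7.94%), 9 of 57 of the ribosomal proteins (15.8%) and 5 of 25 of the proteasome (20%). A match is a description of the window and says nothing of a factor bound there.

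Cox7a2, a subunit of cytochrome c oxidase, had 103 to 294 CPM (median 161) against 259, 267, 297, 299 and 346 CPM (log2 fold change -0.75, SE 0.21, adjusted p = 0.0391). Uqcrfs1, the Rieske iron-sulfur protein of complex III, had 119 to 251 CPM (median 169) against 238, 246, 246, 250.1 and 281 CPM (log2 fold change -0.51, SE 0.14, adjusted p = 0.0402). Sdhd, a membrane anchor of succinate dehydrogenase, had 85.9 to 129 CPM (median 104) against 124, 134, 135, 144 and 151 CPM (log2 fold change -0.35, SE 0.11, adjusted p = 0.0435). For each of these the lowest library was epileptic 4 and the highest epileptic library was 5, which lay within the controls, as did library 8 for Sdhd. Ndufa4 and Cox6c, named after their values were seen, fell too. Ndufa4 averaged 375 ± 163 CPM (SD, n = 6) against 649.7 ± 93.2 CPM (SD, n = 5). Cox6c averaged 342 ± 158 CPM (SD, n = 6) against 618 ± 80.2 CPM (SD, n = 5). The 13 genes of the mitochondrial genome did not move as a block: their median was -0.28 and turned to 0.32 with transcript length and GC content taken out. Only mt-Nd6 passed, with a log2 fold change of -0.82 (SE 0.26, adjusted p = 0.0477), and its forward and reverse counts summed to 1.40 times the unstranded count. mt-Co1 had 4584 to 8149 CPM (median 7159.8) against 2905, 4308, 5128, 5958 and 7319 CPM (log2 fold change 0.43, SE 0.32, adjusted p = 0.345). mt-Nd1 had 2992 to 6061 CPM (median 4714) against 4707, 5656, 6399, 6419 and 6449.9 CPM (log2 fold change -0.38, SE 0.17, adjusted p = 0.132), so that neither passed and their values pointed in opposite directions. The share of reads from mitochondrial genes was 3.27% ± 0.486 (SD, n = 6) against 3.90% ± 0.437 (SD, n = 5) (exact permutation p = 0.0519, adjusted 0.104).

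Of 77 cytosolic ribosomal protein genes, 6 fell and none rose, 76 had a negative log2 fold change, and the median was -0.53. Rps4x, of the small subunit, had 233 to 438 CPM (median 306) against 439.9, 452, 453, 475 and 483 CPM (log2 fold change -0.49, SE 0.13, adjusted p = 0.0355), with all 6 epileptic libraries below the controls. Rps3a1 had 301 to 671 CPM (median 434) against 628, 652, 669, 671 and 689.9 CPM (log2 fold change -0.51, SE 0.15, adjusted p = 0.0427), with the 5 libraries other than 5 below every control. Many ribosomal protein genes have near-identical processed copies, and reads that map to several places were not counted, so their counts are less certain than those of other genes. Of the 31 proteasome genes 7 fell and none rose (median -0.36). Psmb1, of the core particle, had 128 to 276 CPM (median 171) against 249.99, 254, 262, 279.5 and 294 CPM (log2 fold change -0.54, SE 0.15, adjusted p = 0.0404). Psma2, also of the core, had 91.8 to 196 CPM (median 132) against 181, 186, 200.4, 218 and 236 CPM (log2 fold change -0.57, SE 0.18, adjusted p = 0.0464). Psmc6, an ATPase of the regulatory particle, fell as well (log2 fold change -0.36, SE 0.10, adjusted p = 0.0398). The medians of these 3 groups of nuclear genes stayed negative under all 23 alternatives tried, between -0.76 and -0.15 for oxidative phosphorylation, -0.72 and -0.14 for the ribosome and -0.43 and -0.11 for the proteasome. Members of these lists are short, with median transcripts of 908, 860 and 1512 bases against 3016 over all genes.

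Protein synthesis factors were mixed, with 1 of 28 higher and 4 lower (median -0.08). Eef2, the elongation factor that moves the ribosome along the messenger, had 638 to 1511 CPM (median 1079) against 487, 488, 625, 634 and 707 CPM (log2 fold change 0.87, SE 0.23, adjusted p = 0.0355). Eif1, which takes part in the choice of the start codon, had 303 to 552 CPM (median 400.3) against 532, 545, 555, 556 and 602 CPM (log2 fold change -0.44, SE 0.12, adjusted p = 0.0377). Eif4a2, a helicase of the initiation complex, had 642 to 1063 CPM (median 878) against 1014, 1124, 1134, 1159 and 1187 CPM (log2 fold change -0.37, SE 0.11, adjusted p = 0.0467). Eef2 was above every control in 5 of 6 epileptic libraries, and Eif1 and Eif4a2 below every control in 5 of 6, the exception being library 5 each time. Eif3e, a subunit of an initiation factor, also fell (log2 fold change -0.48, SE 0.14, adjusted p = 0.0424).

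Potassium channels repolarise the membrane after each action potential. Of 42 tested, 9 rose and 2 fell, and the median was 0.18, a sign that turned in 1 of the 23 alternatives, the fit of the 11 libraries alone with the percent unmapped as covariate (-0.06). Kcnc4, a fast-activating channel of the Kv3 family, ranged from 72.7 to 141 CPM with a median of 97.7 in epileptic libraries against 57.1, 62.7, 63.00, 65.96 and 68.8 CPM in controls (log2 fold change 0.68, SE 0.15, adjusted p = 0.0320), with all 6 epileptic libraries above the controls. Kcnc1 of the same family, which lets interneurons fire at high rates, had 86.9 to 212 CPM (median 130.1) against 79.1, 81.6, 86.6, 92.7 and 93.7 CPM (log2 fold change 0.63, SE 0.17, adjusted p = 0.0369). Kcnc1 was at control level in library 5 and above it in the other 5. Kcnab1, an auxiliary subunit of Kv1 channels, fell in all 6 libraries, to 107 to 127 CPM (median 113) against 133, 141, 142, 144 and 149 CPM (log2 fold change -0.31, SE 0.09, adjusted p = 0.0404). With the percent unmapped as covariate Kcnc4 passed, at 0.54 (adjusted p = 0.0458), and Kcnc1 and Kcnab1 did not, at 0.39 (adjusted p = 0.0938) and -0.32 (adjusted p = 0.0603). With length and GC content taken out none of these 3 passed.

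Of 28 sodium, calcium and HCN channel genes 6 rose and 1 fell (median 0.35, turned to -0.02 by the same alternative). The rises were in calcium and pacemaker channels. Cacna1e, an R-type calcium channel, had 73.6 to 195 CPM (median 129.9) against 58.8, 67.1, 77.9, 79.4 and 80.9 CPM (log2 fold change 0.82, SE 0.21, adjusted p = 0.0347). Cacna1g, a T-type calcium channel that carries burst firing, had 27.00 to 70.9 CPM (median 41.4) against 22.7, 23.4, 27.6, 28.6 and 29.9 CPM (log2 fold change 0.72, SE 0.19, adjusted p = 0.0347). Cacna1h, another T-type channel, had 15.6 to 101 CPM (median 50.5) against 7.58, 14.9, 20.2, 21.3 and 22.4 CPM (log2 fold change 1.55, SE 0.44, adjusted p = 0.0404), with a strand sum of 1.14 times the unstranded count. All 3 were highest in library 4, the library with the fewest unmapped reads, and at control level in library 5. Hcn4, a pacemaker channel, was low in both groups, at 1.95 to 8.99 CPM (median 2.46) against 0.295, 0.666, 0.812, 0.878 and 2.08 CPM (log2 fold change 1.88, SE 0.51, adjusted p = 0.0364). Its value in library 4 stood apart from the other 5 epileptic libraries. Scn2a1 (Scn2a in RefSeq), the sodium channel of excitatory neurons, fell instead (log2 fold change -0.55, SE 0.16, adjusted p = 0.0423). It went from 326, 364, 374, 379 and 379.95 CPM in controls to 211 to 325 CPM (median 241) in epileptic libraries, all 6 below the controls.

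At glutamatergic synapses, 2 of 28 receptor genes rose and 1 fell, near the shares of all genes called (7.26% higher and 3.76% lower). Their median was 0.13, of opposite sign with the percent unmapped as covariate, both over all libraries and over the 11 alone. Gria2, the AMPA receptor subunit that keeps the channel closed to calcium, ranged from 564 to 1218 CPM with a median of 829 in epileptic libraries against 1299, 1303, 1304, 1406 and 1444 CPM in controls (log2 fold change -0.66, SE 0.17, adjusted p = 0.0333), below the controls in all 6. Grm4, a presynaptic metabotropic receptor, had 11.2 to 31.2 CPM (median 12.6) against 7.62, 7.90, 9.06, 9.37 and 10.4 CPM (log2 fold change 0.92, SE 0.23, adjusted p = 0.0333), above them in all 6. Grik3, a kainate receptor subunit, had 18.7 to 66.6 CPM (median 26.8) against 14.9, 15.2, 16.3, 19.5 and 21.5 CPM (log2 fold change 0.88, SE 0.28, adjusted p = 0.0486). Library 4, at 66.6 CPM, stood apart from the others. Slc17a7, which loads glutamate into synaptic vesicles, had 660.2 to 1573 CPM (median 1222) against 564, 689, 726, 741 and 772 CPM (log2 fold change 0.77, SE 0.21, adjusted p = 0.0366), above every control in all but library 5. Unc13a, a priming factor of vesicle release, rose too (log2 fold change 0.79, SE 0.23, adjusted p = 0.0404), with a strand sum of 1.15 times its unstranded count. These were the only 2 of 25 presynaptic genes that passed, near the 7.26% of all genes that were higher. The presynaptic median was 0.27, and -0.04 in the fit of the 11 libraries with the percent unmapped. Snap25, a SNARE protein, did not pass, with 1849 to 2223 CPM (median 2058) against 2382, 2431, 2441, 2497 and 2524 CPM (log2 fold change -0.26, SE 0.09, adjusted p = 0.0609).

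The postsynaptic density and its adhesion molecules held the most falls of any synaptic list, with 2 of 25 members higher and 6 lower. The median of 0.13 had the opposite sign to most of these calls and turned to -0.22 with length and GC content taken out and to -0.07 in the fit of the 11 libraries with the percent unmapped. Shank3, the scaffold of the postsynaptic density, ranged from 73.99 to 309 CPM with a median of 172 against 59.7, 70.7, 73.4, 79.03 and 94.2 CPM (log2 fold change 1.22, SE 0.30, adjusted p = 0.0330). Dlgap2, which links Shank proteins to PSD-95, had 10.2 to 37.8 CPM (median 18.98) against 7.79, 8.07, 8.43, 9.74 and 11.5 CPM (log2 fold change 1.17, SE 0.29, adjusted p = 0.0333). Both were at control level in library 5 and highest in library 4. Nrxn3, a neurexin of presynaptic adhesion, had 170.3 to 302 CPM (median 207) against 316, 375, 375, 383 and 411 CPM (log2 fold change -0.78, SE 0.20, adjusted p = 0.0347). Ppp3ca, the catalytic subunit of calcineurin and among the most abundant members, had 2028 to 4464 CPM (median 3028) against 4493, 5027, 5164, 5392 and 5862 CPM (log2 fold change -0.76, SE 0.23, adjusted p = 0.0436). Nrxn3, Ppp3ca, Dlgap1 and Nlgn3 were below the controls in all 6 epileptic libraries. With length and GC content taken out Nrxn3 passed again, at -0.92 (adjusted p = 0.0436), as did Dlgap1 at -0.66 (adjusted p = 0.0458), whereas Shank3 did not, at 0.65 (adjusted p = 0.0605).

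Inhibition by GABA depends on its receptors, on its removal from the cleft and on the chloride gradient. In this list of 19 genes 4 rose and 1 fell (median -0.00, of opposite sign in 6 of 23 alternatives). Gabrb2, the beta2 subunit of the GABA-A receptor, showed the largest log2 fold change of the named genes. Control libraries had 1.41, 2.27, 2.49, 4.25 and 4.52 CPM, and epileptic libraries ranged from 2.82 to 69.6 CPM with a median of 14.9 (log2 fold change 2.96, SE 0.64, adjusted p = 0.0320). It reached 69.6 CPM in library 4, 31.7 in 7 and 22.3 in 9 but lay between 2.82 and 7.47 CPM in the other 3, so that the SD of the epileptic libraries, 25.0 CPM, exceeded their mean of 23.6. The thalamus list, whose genes mark a neighbouring tissue, stood at 0.96 above the control mean in library 4 (log2 scale), at 0.00 in 7 and at -0.09 in 9, where controls ran from -0.24 to 0.36. The 10 genes of that list summed to between 188 and 389 CPM in epileptic and between 216 and 322 CPM in control libraries, and their part in the level of Gabrb2 was not tested. Gabbr2, a subunit of the GABA-B receptor, had 96.03 to 313 CPM (median 160.4) against 86.3, 93.8, 104, 108 and 111 CPM (log2 fold change 0.76, SE 0.23, adjusted p = 0.0435). Slc6a11, the GABA transporter of astrocytes, had 56.6 to 241 CPM (median 105) against 45.02, 46.7, 50.3, 51.9 and 71.4 CPM (log2 fold change 1.15, SE 0.35, adjusted p = 0.0455). Slc12a5, the KCC2 transporter that keeps neuronal chloride low, had 385 to 669 CPM (median 502) against 362, 364, 365, 379 and 409 CPM (log2 fold change 0.41, SE 0.12, adjusted p = 0.0423). Its fold change turned to -0.02 with length and GC content taken out. Gabra5, of extrasynaptic receptors, fell (log2 fold change -0.37, SE 0.11, adjusted p = 0.0428), with a strand sum of 1.14 times its unstranded count. With forward plus reverse counts no member of this list passed as lower, Gabra5 included.

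**Figure D3:**
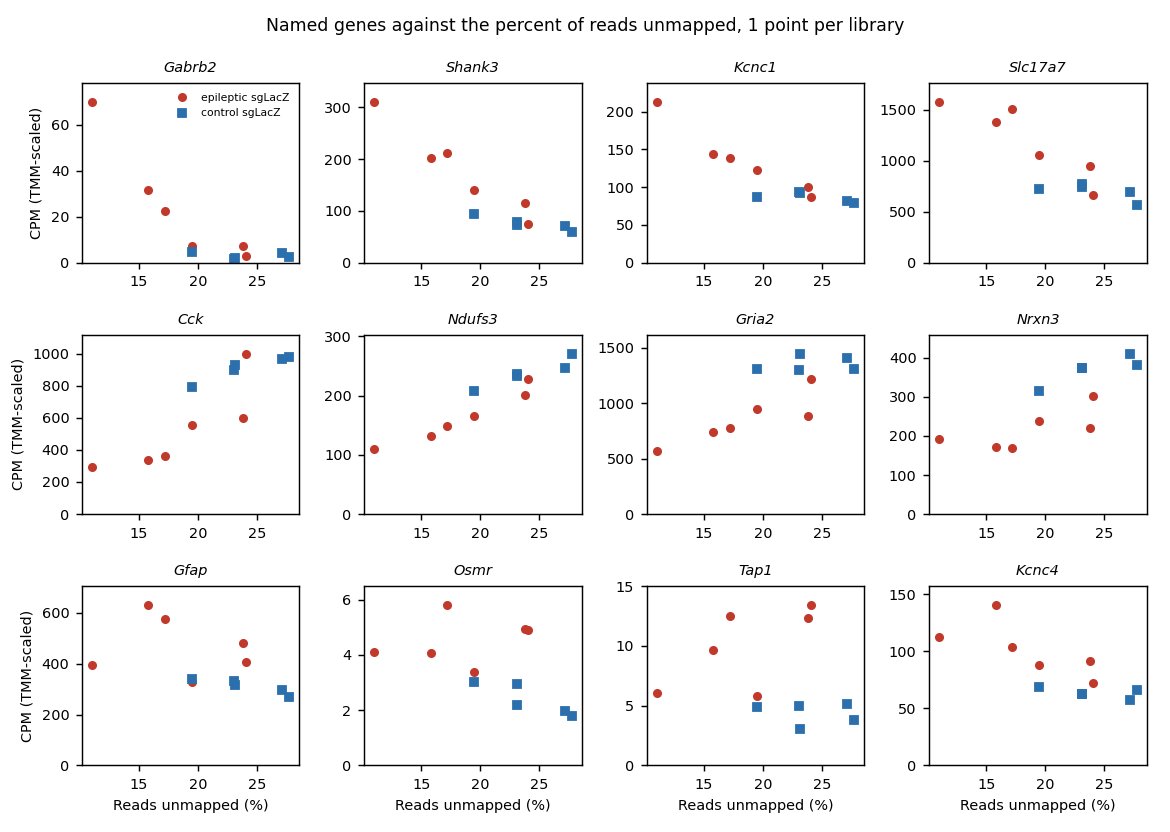
CPM of 12 named genes against the percent of reads unmapped, circles for the 6 epileptic and squares for the 5 control sgLacZ libraries. Gabrb2, Shank3, Kcnc1 and Slc17a7 are highest in the epileptic libraries with few unmapped reads and near the controls in those with many, Cck, Ndufs3, Gria2 and Nrxn3 are lowest in those with few, and Gfap, Osmr and Tap1 follow no such order.

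The brain extracellular matrix, which holds perineuronal nets and basement membranes, had 4 of 17 genes higher and none lower (median 0.43, positive under all 23 alternatives, between 0.04 and 0.52). Col4a1 and Col4a2, the chains of basement membrane collagen, which lie head to head in the genome, moved alike. Col4a1 had 11.1 to 24.6 CPM (median 18.1) against 5.09, 7.49, 9.55, 12.7 and 13.1 CPM (log2 fold change 0.88, SE 0.24, adjusted p = 0.0366). Col4a2 had 9.14 to 27.8 CPM (median 18.8) against 7.00, 7.03, 8.13, 8.86 and 16.3 CPM (log2 fold change 0.94, SE 0.29, adjusted p = 0.0450), both within the controls in libraries 5 and 8. Tnr, a matrix protein of perineuronal nets, had 21.9 to 119 CPM (median 53.4) against 16.7, 19.8, 22.9, 25.7 and 26.1 CPM (log2 fold change 1.41, SE 0.33, adjusted p = 0.0327). The strand sum of Tnr was 1.39 times its unstranded count, and with forward plus reverse counts its log2 fold change was 0.67 (adjusted p = 0.0412). Lama2, a laminin chain, rose as well (log2 fold change 1.14, SE 0.34, adjusted p = 0.0431), but with forward plus reverse counts it did not pass, at 0.61 (adjusted p = 0.0777). Among neurotrophins and their receptors 2 of 10 rose, and both were sorting receptors: Sorcs2 had 14.7 to 65.9 CPM (median 30.6) against 10.4, 11.7, 14.3, 16.1 and 16.8 CPM (log2 fold change 1.23, SE 0.30, adjusted p = 0.0330). Sort1, sortilin, had 229.6 to 569.6 CPM (median 369) against 215, 220.4, 236, 252 and 264 CPM (log2 fold change 0.67, SE 0.19, adjusted p = 0.0391). Bdnf, the ligand that neuronal activity induces, did not pass, although all 6 epileptic libraries, 37.3 to 62.7 CPM (median 54.3), lay below the controls, 64.7, 69.7, 70.99, 87.2 and 87.9 CPM (log2 fold change -0.52, SE 0.25, adjusted p = 0.142).

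Interneurons are marked by the GABA-making enzymes and by the peptides and calcium buffers of their classes. Of 21 genes only Cck fell, near the 3.76% of all genes lower, and none rose (median -0.21, negative under all 23 alternatives). Cck, a peptide of basket cells that pyramidal cells also make, ranged from 292 to 999 CPM with a median of 460.1 in epileptic libraries against 789.7, 896, 929.6, 966 and 976 CPM in controls (log2 fold change -0.80, SE 0.24, adjusted p = 0.0426). It was below every control in 5 libraries and above every control in library 5. Sst, of dendrite-targeting cells, had 226 to 810.5 CPM (median 369) against 602, 660.3, 742, 769 and 818 CPM (log2 fold change -0.80, SE 0.25, adjusted p = 0.0505). Pvalb, of fast-spiking basket cells, had 30.4 to 119 CPM (median 45.97) against 89.8, 110.3, 111, 124 and 126 CPM (log2 fold change -1.01, SE 0.33, adjusted p = 0.0524). Neither passed, and in both library 5 stood within the controls and apart from the other 5 libraries. Gad1, the enzyme shared by all classes, averaged 312 ± 49.3 CPM (SD, n = 6) against 339 ± 17.6 CPM (SD, n = 5) and did not pass (log2 fold change -0.12, adjusted p = 0.425). In the list of neuropeptides, 16 of 18 had a negative log2 fold change, 2 fell and none rose (median -0.27). Nts, neurotensin, had 5.94 to 13.1 CPM (median 7.28) against 12.6, 12.96, 13.6, 15.3 and 20.02 CPM (log2 fold change -0.82, SE 0.24, adjusted p = 0.0407). Tac1, the substance P precursor, had 8.73 to 25.6 CPM (median 14.1) against 17.6, 21.8, 25.97, 28.8 and 29.5 CPM (log2 fold change -0.75, SE 0.28, adjusted p = 0.0739).

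Immediate early genes report recent firing. Of 26 genes 1 fell and none rose, beside 3.76% lower and 7.26% higher among all genes (median -0.23, negative under all 23 alternatives). That gene was Homer1, whose short form is induced by activity. It had 72.5 to 92.5 CPM (median 84.6) against 103, 105, 109.7, 117 and 121 CPM (log2 fold change -0.40, SE 0.13, adjusted p = 0.0489), with all 6 libraries below the controls. Jun had 116 to 146 CPM (median 131) against 102, 112, 118, 130.1 and 135 CPM (log2 fold change 0.13, SE 0.09, adjusted p = 0.321). Nptx2, a secreted pentraxin that clusters AMPA receptors, had 21.3 to 43.2 CPM (median 32.04) against 18.3, 19.1, 20.5, 21.7 and 21.99 CPM (log2 fold change 0.63, SE 0.22, adjusted p = 0.0640), so that neither passed.

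Of 22 genes of reactive astrocytes 2 rose and none fell, near the shares of all genes called (7.26% higher and 3.76% lower) (median 0.18, positive under all 23 alternatives). Gfap, the filament protein that defines reactive astrocytes, ranged from 327 to 630.5 CPM with a median of 445 in epileptic libraries against 268, 295, 317, 331 and 340.4 CPM in controls (log2 fold change 0.60, SE 0.18, adjusted p = 0.0447), above every control in all but library 6. It did not pass with length and GC content taken out, at 0.43 (adjusted p = 0.138), with the percent unmapped as covariate, at 0.63 (adjusted p = 0.0671), or with sex, read from Xist against Y-linked genes, as covariate (adjusted p = 0.0622). Osmr, a receptor chain for oncostatin M, had 3.38 to 5.80 CPM (median 4.51) against 1.79, 1.96, 2.18, 2.93 and 3.01 CPM (log2 fold change 0.93, SE 0.24, adjusted p = 0.0347), above the controls in all 6. It passed also with length and GC content taken out, at 0.90 (adjusted p = 0.0466), but not with sex as covariate (adjusted p = 0.0515). With the percent unmapped as covariate it passed over all 17 libraries (adjusted p = 0.0373), but no gene passed over the 11 alone. Il6st, the partner chain gp130 of Osmr, was the only member that passed of 16 cytokine and receptor genes. It had 44.3 to 92.9 CPM (median 56.6) against 39.7, 41.6, 42.02, 42.4 and 43.8 CPM (log2 fold change 0.55, SE 0.16, adjusted p = 0.0423), above the controls in all 6. Il6st was highest in library 4 and lowest in library 5, and fell as the percent unmapped rose. No member of its list passed with the percent unmapped or sex as covariate, or with length and GC content taken out. Serpina3n, a serine protease inhibitor of reactive astrocytes, had 40.2 to 72.3 CPM (median 46.3) against 28.5, 33.4, 36.3, 39.1 and 39.6 CPM (log2 fold change 0.55, SE 0.21, adjusted p = 0.0806), above the controls in all 6 without passing. C4b, complement, had 40.8 to 119 CPM (median 81.4) against 35.8, 44.3, 47.5, 49.4 and 58.3 CPM (log2 fold change 0.72, SE 0.32, adjusted p = 0.123). General astrocyte genes held 1 rise in 20, Aldh1l1 (log2 fold change 0.33, SE 0.09, adjusted p = 0.0391, strand sum 1.27 times the unstranded count). Their most abundant members did not pass: Glul, glutamine synthetase, had 1351 to 1566 CPM (median 1392) against 1258, 1341, 1404, 1472 and 1532 CPM (log2 fold change 0.01, SE 0.09, adjusted p = 0.932). Slc1a2, the glutamate transporter, had 1249 to 1567 CPM (median 1358) against 1073, 1196, 1197, 1311 and 1357 CPM (log2 fold change 0.17, SE 0.09, adjusted p = 0.189).

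Of 20 microglial genes 1 rose and 1 fell, again near the shares of all genes, and the median of -0.10 turned positive in 4 of 23 alternatives. The mean of the list, relative to the control mean on the log2 scale, ran from -0.55 to 0.35 in epileptic libraries. In controls it ran from -0.07 to 0.04. Siglech, a lectin of homeostatic microglia, had 12.3 to 23.03 CPM (median 16.4) against 20.6, 22.4, 24.1, 24.8 and 27.98 CPM (log2 fold change -0.49, SE 0.14, adjusted p = 0.0414), below the controls in all but library 5. Csf1r, the receptor on which microglia depend, rose (log2 fold change 0.38, SE 0.10, adjusted p = 0.0356). Its strand sum was 1.36 times its unstranded count, and with forward plus reverse counts it did not pass, at 0.09 (adjusted p = 0.469). Ctss, cathepsin S, ranged from 57.4 to 253 CPM with a median of 133 in epileptic libraries, on both sides of the controls at 128, 143, 145, 159.7 and 173 CPM (log2 fold change -0.07, SE 0.26, adjusted p = 0.874). Of 18 genes of activated microglia 1 fell and none rose (median 0.20): Lpl, lipoprotein lipase, went from 79.7, 81.9, 88.6, 111 and 118 CPM in controls to 34.7 to 84.96 CPM (median 50.7) in epileptic libraries (log2 fold change -0.84, SE 0.23, adjusted p = 0.0365). Of 23 genes of antigen presentation and the interferon response only Tap1 rose (median 0.40, positive under all 23 alternatives, between 0.14 and 0.62). Tap1 did not pass with the percent unmapped as covariate, at 1.13 (adjusted p = 0.0937), or with sex as covariate (adjusted p = 0.0643). With length and GC content taken out it stood at 0.96 (adjusted p = 0.105), and no member of the list passed there. The epileptic libraries spread widely here: the mean of the list, relative to the control mean on the log2 scale, was 1.07 in library 5, 0.86 in 8, 0.50 in 9, 0.36 in 7, -0.55 in 6 and -1.04 in 4, against -0.52 to 0.33 in controls. B2m, the light chain of class I molecules, ranged from 74.4 to 474 CPM with a median of 211 against 198, 238, 239, 269 and 296 CPM (log2 fold change -0.04, SE 0.34, adjusted p = 0.942). Its heavy chain H2-D1 ranged from 62.6 to 219.6 CPM with a median of 160.00 against 69.4, 84.3, 97.9, 110.4 and 113 CPM (log2 fold change 0.63, SE 0.35, adjusted p = 0.201). Ifit3, an interferon-induced gene, showed the same split, with 9.36 CPM in library 4, 11.6 in 6 and 33.1 to 37.2 CPM in the other 4 (log2 fold change 0.77, SE 0.48, adjusted p = 0.258).

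No gene of myelinating oligodendrocytes (20), oligodendrocyte precursors (13), dentate granule cells (12) or immature and dividing cells (19) passed in edgeR. At an unadjusted p under 0.05 these lists had 0 higher and 2 lower, 3 and 2, 2 and 3, and 0 and 3, and DESeq2, which called 11.8% of all genes higher and 9.17% lower, called 0 and 0, 1 and 1, 0 and 1, and 0 and 2. Mbp, a protein of the myelin sheath, had 1925 to 2721 CPM (median 2281) against 2078, 2126, 2385, 2526 and 3358 CPM (log2 fold change -0.12, SE 0.18, adjusted p = 0.655). In the dentate list C1ql2, of mossy fibre synapses, had 106 to 218 CPM (median 139) against 85.3, 93.9, 116, 123 and 137 CPM (log2 fold change 0.48, SE 0.22, adjusted p = 0.134). Calb1, calbindin, had 93.5 to 168 CPM (median 119) against 138, 159, 159.7, 168 and 208 CPM (log2 fold change -0.40, SE 0.21, adjusted p = 0.184). Of 18 genes of CA pyramidal cells 1 rose and 2 fell, beside 7.26% higher and 3.76% lower among all genes. Wfs1, of CA1, had 89.4 to 142 CPM (median 107) against 65.96, 71.3, 79.9, 87.1 and 95.8 CPM (log2 fold change 0.49, SE 0.15, adjusted p = 0.0478). Spink8, also of CA1, had 12.8 to 45.1 CPM (median 21.8) against 37.04, 39.02, 45.1, 49.9 and 52.2 CPM (log2 fold change -0.91, SE 0.26, adjusted p = 0.0400). Bok, a protein of the Bcl-2 family enriched in CA3, had 104 to 139.8 CPM (median 119.9) against 138, 172, 181, 186 and 191 CPM (log2 fold change -0.52, SE 0.16, adjusted p = 0.0454). The pyramidal markers thus pointed both ways, and the mean of the list lay between -0.05 and 0.19 in epileptic and between -0.10 and 0.10 in control libraries.

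Of 20 endothelial genes 2 rose and none fell, near the shares of all genes (7.26% higher and 3.76% lower). Their median was 0.01, of opposite sign in 8 of 23 alternatives. Vwf, von Willebrand factor, had 13.1 to 26.9 CPM (median 17.9) against 6.06, 6.84, 9.41, 13.9 and 15.5 CPM (log2 fold change 0.85, SE 0.25, adjusted p = 0.0414). Abcb1a, a drug efflux pump of the blood-brain barrier, had 15.6 to 25.7 CPM (median 18.7) against 10.8, 11.7, 13.2, 15.02 and 15.4 CPM (log2 fold change 0.56, SE 0.14, adjusted p = 0.0330). Abcb1a was above the controls in all 6 libraries and passed again with length and GC content taken out, at 0.49 (adjusted p = 0.0400). It had a strand sum of 1.08 times its unstranded count. With the percent unmapped as covariate no endothelial gene passed, Abcb1a included. No mural gene passed (of 15, with 2 higher and 1 lower at an unadjusted p under 0.05, and 1 and 1 by DESeq2). Haemoglobins, which report blood left in the tissue, were lower in epileptic libraries: Hba-a1 had 36.3 to 141 CPM (median 68.3) against 119, 137, 165, 169.6 and 240.1 CPM (log2 fold change -1.16, SE 0.33, adjusted p = 0.0404). Hbb-b2 had 3.85 to 20.8 CPM (median 8.58) against 15.8, 19.8, 20.8, 24.8 and 35.4 CPM (log2 fold change -1.25, SE 0.39, adjusted p = 0.0475), below the controls in all but library 5. Haemoglobin genes share sequence, and reads that fit several of them were not counted. Over the 5 genes of the red blood cell list the summed level was 99.1 to 384 CPM in epileptic and 277 to 610.2 CPM in control libraries.

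The choroid plexus list had the highest median, 0.57, with all 18 genes positive, but no member passed (edgeR; 1 higher and 0 lower at an unadjusted p under 0.05, and 0 and 0 by DESeq2). Ttr, transthyretin, its most abundant gene, had 4102 to 11136 CPM (median 5148) against 1149, 2760.5, 4545, 6501 and 12244 CPM (log2 fold change 0.21, SE 0.64, adjusted p = 0.839). Enpp2, autotaxin, had 744 to 2028 CPM (median 1499) against 272, 581, 741, 1073 and 1498 CPM (log2 fold change 0.84, SE 0.49, adjusted p = 0.224). Controls alone spanned -1.40 to 1.22 in the mean of this list on the log2 scale, a wider range than the 0.24 to 1.36 of the epileptic libraries. Of 20 genes of ependymal cells and motile cilia 2 fell, Tmem212 and Fam183b. Fam183b had 3.54 to 6.74 CPM (median 4.96) against 5.66, 7.60, 7.78, 8.87 and 9.91 CPM (log2 fold change -0.61, SE 0.19, adjusted p = 0.0479), and it turned to 0.07 with length and GC content taken out. Of the neighbouring tissues, no gene of the thalamus (10) or striatum (8) lists passed (edgeR; 2 higher and 0 lower, and 1 and 1, at an unadjusted p under 0.05, and 1 and 0, and 0 and 1, by DESeq2). Of 9 neocortex genes Cux1, of upper layers, rose (log2 fold change 0.45, SE 0.14, adjusted p = 0.0489). Several genes of these lists are also made in the hippocampus.

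Factors of RNA splicing fell more often than they rose, 6 against 2 of 42 (median -0.19, negative under all 23 alternatives). Srsf11 had 67.3 to 125 CPM (median 91.9) against 134, 143, 145, 152 and 160.4 CPM (log2 fold change -0.66, SE 0.18, adjusted p = 0.0377). Srsf3 had 122 to 182 CPM (median 161) against 191, 195, 211, 211 and 219 CPM (log2 fold change -0.39, SE 0.11, adjusted p = 0.0404). Tra2a, which binds exonic enhancers, had 39.5 to 68.2 CPM (median 57.2) against 73.1, 73.2, 73.5, 78.96 and 79.2 CPM (log2 fold change -0.44, SE 0.13, adjusted p = 0.0417). All 3 were below the controls in all 6 libraries. Ddx17, an RNA helicase, rose instead, with 137 to 234 CPM (median 190.5) against 109, 118, 141, 149 and 159.9 CPM (log2 fold change 0.47, SE 0.13, adjusted p = 0.0387). Srsf4 also passed as higher, but its strand sum was 15.49 times its unstranded count, and with forward plus reverse counts its log2 fold change was 0.06 (adjusted p = 0.621). Of 39 chromatin regulators 2 rose and none fell, beside 7.26% higher and 3.76% lower among all genes. Their median was -0.02, of opposite sign in 6 of 23 alternatives. Kdm5b, a histone H3 demethylase, had 45.2 to 68.96 CPM (median 55.2) against 35.6, 38.5, 40.9, 44.6 and 44.97 CPM (log2 fold change 0.46, SE 0.12, adjusted p = 0.0347). Kdm5b was above the controls in all 6 libraries.

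In cholesterol synthesis and uptake 1 of 23 genes passed: Msmo1, a sterol methyl oxidase, fell, from 137, 147, 148, 174 and 189.8 CPM in controls to 73.9 to 148 CPM (median 100.3) (log2 fold change -0.60, SE 0.15, adjusted p = 0.0332). It passed again with length and GC content taken out, at -0.44 (adjusted p = 0.0455). With the percent unmapped as covariate it passed over all 17 libraries, at -0.44 (adjusted p = 0.0483), but no gene passed over the 11 alone. Srebf2, the transcription factor that drives this pathway, had 126 to 276 CPM (median 192) against 123, 125, 137, 138 and 152 CPM (log2 fold change 0.54, SE 0.17, adjusted p = 0.0516). In the circadian clock only Nr1d1 of 17 genes passed (log2 fold change 1.23, SE 0.31, adjusted p = 0.0346). Its strand sum was 9.87 times its unstranded count, and with forward plus reverse counts it did not pass, at 0.21 (adjusted p = 0.510). No heat shock gene (20) or abundant long noncoding RNA (4) passed in edgeR, with 1 higher and 3 lower, and 0 and 0, at an unadjusted p under 0.05 and 0 and 1, and 0 and 0, by DESeq2. Hsp90aa1, a chaperone, had 1061 to 2113 CPM (median 1362) against 2112, 2143, 2304, 2358 and 2541 CPM (log2 fold change -0.67, SE 0.27, adjusted p = 0.0942).

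The epileptic libraries did not differ from the controls to the same degree. For many genes the highest and lowest of them were the libraries with the fewest and the most reads unmapped. Of the 1278 genes called higher, 979 (76.6%) were highest in epileptic library 4, with the fewest unmapped reads, and lowest in library 5, with the most, against 18.5% of all genes tested. Of the 662 called lower, 459 (69.3%) were lowest in library 4 and highest in library 5, against 18.6% of all genes. The nuclear oxidative phosphorylation genes, taken as the mean of the list relative to the control mean on the log2 scale, stood at -1.16 in library 4, -0.92 in 7, -0.77 in 9, -0.46 in 6, -0.27 in 8 and 0.12 in 5, with controls between -0.21 and 0.22. The ribosomal proteins, the mitochondrial genes, the proteasome and the protein synthesis factors had the same order. The potassium channels, the sodium, calcium and HCN channels, the GABA genes, the presynaptic genes, the matrix and the circadian genes had the reverse order, from 0.66 in library 4 to -0.01 in library 5 for the potassium channels. The astrocyte, microglia and interferon lists did not follow either order over all 6 libraries. The interferon list, the reactive astrocytes and both microglia lists were nonetheless highest in library 5 and lowest in library 4. In the interferon list and both microglia lists only library 6 was out of the order of the oxidative phosphorylation genes.

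**Figure D4:**
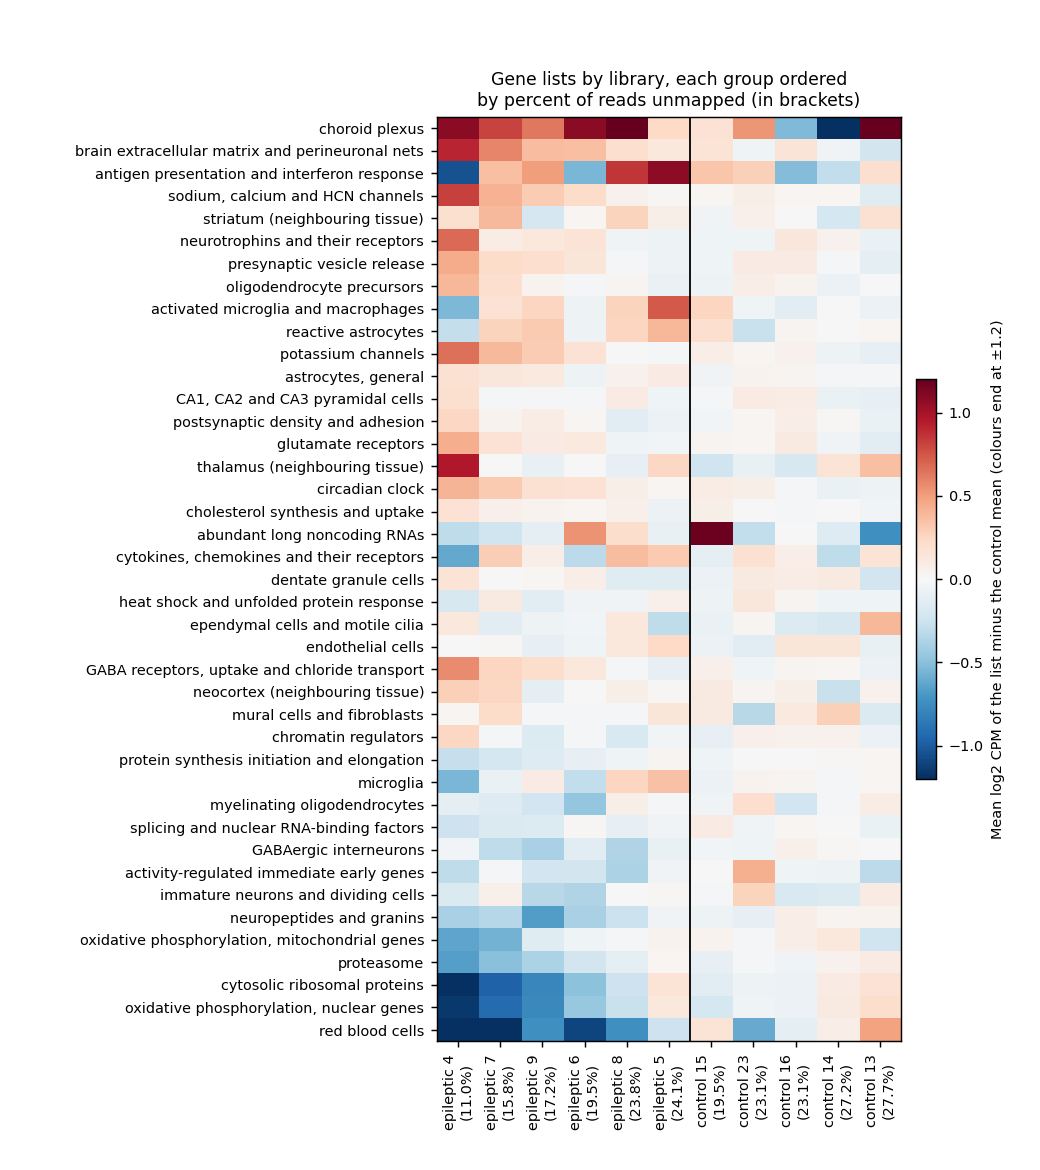
Mean log2 CPM of each gene list minus the mean of the 5 control libraries, by library, with each group ordered by its percent of reads unmapped (colours end at ±1.2). Lists of oxidative phosphorylation, ribosome and proteasome are lowest in epileptic library 4 and at control level in library 5, channels and matrix run the other way, and antigen presentation is highest in libraries 8 and 5 and lowest in 4.

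The differences also ran with transcript length and GC content. Genes were put into 5 equal classes of each. In the class with the shortest transcripts the median log2 fold change was -0.28, with 0.855% of genes higher and 8.38% lower, and in the class with the longest it was 0.22, with 14.5% higher and 1.2% lower. By GC content the medians ran from -0.09 in the lowest class (2.15% higher, 8.11% lower) to 0.19 in the highest (14.7% higher, 1.4% lower). Among the 342 genes that were in both lowest classes 0.585% were higher and 19% lower, and among the 312 in both highest classes 37.2% were higher and 0.321% lower. The longest class stood above the shortest by 1.26 on the log2 scale in epileptic library 4, 0.79 in 7, 0.61 in 9, 0.40 in 6, 0.08 in 8 and -0.13 in 5, and by -0.21 to 0.10 in controls. For GC content the highest class stood above the lowest by 0.15 to 0.40 in all 6 epileptic libraries, lowest in 5 and highest in 4, and by -0.06 to 0.12 in controls. With these trends taken out, over 14619 genes with both values, 312 genes were higher (2.13%) and 115 lower (0.787%). Of these 293 and 87 were called with TMM scaling too, and 1726 of the 1753 earlier calls that were tested kept their sign. Of the 79 genes that the rule took and that passed, 14 passed there as well, among them Nkain1, Megf6, Iglon5, Lpar4, G0s2, C130026L21Rik, Osmr, Cck, Gabrb2, Nrxn3, Ndufs3 and Msmo1.

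**Figure D5:**
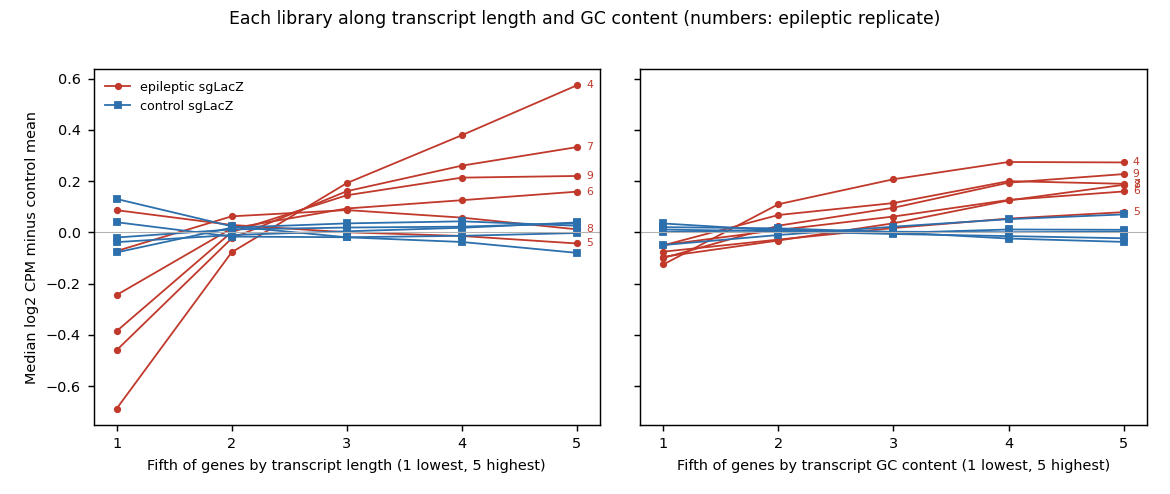
Median log2 CPM minus the control mean over 5 equal classes of genes by transcript length (left) and transcript GC content (right), 1 line per library, circles for epileptic and squares for control sgLacZ. Epileptic library 4 runs from -0.69 in the shortest to 0.57 in the longest class, libraries 7, 9 and 6 follow with smaller slopes over length, and libraries 8 and 5 lie near the controls there. Over GC content all 6 epileptic libraries rise more than every control, 8 and 5 included.

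The check by strand touched a part of the calls. Reverse counts were 0.994 to 0.998 times the forward counts in every library, so the counts hold no strand information, and a read inside a pair of genes on opposite strands is counted for neither. Of the 1278 genes called higher, 857 had a strand sum that exceeded the unstranded count by at most 5%, and 854 of these (99.6%) were called again with forward plus reverse counts (9.13% of genes higher and 5.07% lower there). Of the other 421, which overlap a gene on the opposite strand, 162 (38.5%) were called again and 65 had the opposite sign. Of the 662 called lower, 531 of 534 without overlap (99.4%) and 69 of 128 with overlap (53.9%) were called again. Such overlaps were present in 3567 of all genes tested (20.2%), and the genes named by rule as rising or falling were taken from those without one.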

How the data were processed

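RNA of whole hippocampus was sequenced in 17 mouse libraries (6 epileptic sgLacZ, 5 control sgLacZ, 6 epileptic sgKcna1). The deposited files hold counts of reads per gene for 55450 genes, which the authors made with STAR 2.7 against mm10, per the submitters' processing notes, which also name DESeq2. The annotation release is not given in the sources used here. The labels name an unstranded kit and the study's methods a stranded one, and forward and reverse counts were near equal. Unmapped reads were 11.0% to 27.7% of all reads in each of the 11 libraries. Of the mapped reads, 3.59% to 6.98% mapped to several places, 2.97% to 6.23% lay outside genes and 5.88% to 7.48% were ambiguous. All of these stayed out of library sizes and tests. Reads in genes numbered 15365455 to 28311328 per library. The floor of 3 reads covers counting error only, while SDs and SEs also hold the spread between libraries.

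Unstranded counts were tested with edgeR 4.0.16 (quasi-likelihood test, two-sided, TMM scaling, filterByExpr by group, all 17 libraries, no covariate, Benjamini-Hochberg adjustment over 17615 genes, threshold 0.05) in R 4.3.3. The pipeline was tested on simulated data. Library measures were compared by exact permutation tests over 462 splits (scipy 1.17.1, Python 3.11.15). Symbols were found for 89.7% of tested genes and transcript length and GC content, from transcripts of an older build, for 83%. Of the list symbols, 12 had no match. Coordinates and promoters are those of RefSeq on GRCm38.p6. The genes named were, with a strand sum at most 5% above the unstranded count, the 8 largest rises and falls with at least 5 CPM and no overlap of groups (from 111 and 143 that met this), and up to 4 per list past the threshold with the smallest p and at least 1 CPM. Where fewer than 2 passed, the most abundant members are given as values. Some genes that the rule took are not reported here. A further 28 genes were named after their values were seen. Members and lists were chosen with earlier results of these data known. The 23 alternatives, 4 of them chosen after seeing the data, included DESeq2 1.42.0, limma 3.58.1 with voom, other scaling, no filter, covariates and the loss of each library.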

Additional observations from a re-analysis of the deposited data

Results flagged for a closer look

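Of 348 values of named genes and gene lists checked within a group, 17 had a library that stood apart from the rest of its group by Dixon's criterion at the 95% level, where chance gives about 1 in 20. Epileptic library 4 stood above the other epileptic libraries for Hcn4 (8.99 CPM against 1.95 to 3.46), Grik3 (66.6 CPM against 18.7 to 31.2), Gad1 (409 CPM against 276 to 318) and Slc6a11 (240.5 CPM against 56.6 to 115). Its list means on the log2 scale, relative to controls, stood above the others for the thalamus (0.96 against -0.10 to 0.25), the neurotrophins (0.68 against -0.06 to 0.16) and the chromatin regulators (0.25 against -0.18 to -0.02). Epileptic library 5 stood above the others for Sst (810.5 CPM against 226 to 440.3), Pvalb (119 CPM against 30.4 to 59.6), Scn2a1 (325 CPM against 211 to 246) and Glul (1566 CPM against 1351 to 1423), and below them for mt-Co1 (4584 CPM against 6814 to 8149).

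Among the controls, library 15 was above the others for Col4a2 (16.3 CPM against 7.00 to 8.86) and Slc6a11 (71.4 CPM against 45.0 to 51.9), and library 13 for Uqcrfs1 (281 CPM against 238 to 250.1). The sodium, calcium and HCN channel list was low in control 13 (-0.14 against 0.02 to 0.07), and the neocortex list in control 14 (-0.27 against 0.04 to 0.11). Libraries 4 and 5 are also those with the fewest and the most unmapped reads of the epileptic group, and the part of that share in these values was not tested.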

How the results depend on the processing

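The number of genes called depended on the processing far more than their direction did. Against 1278 higher and 662 lower, DESeq2 called 2070 and 1616 and limma voom 3769 and 3532, where the higher share of the calls was 51.6% against 65.9%. The 11 libraries alone gave 1195 lower, and 1139 were lower without the libraries that held both Xist and Y-linked reads. Fewer passed with the percent unmapped (252 and 176) or sex (389 and 127) as covariate, with transcript length and GC content taken out (312 and 115), and in the 11 libraries with sex (389 and 186). In the 11 libraries with the percent unmapped, edgeR called 0 and 0, with 1430 and 1290 at an unadjusted p under 0.05. Leaving out each library gave 0 to 2828 higher and 0 to 2698 lower. It gave differences of -6.73 to -4.06 in percent unmapped, with an unadjusted exact permutation p = 0.0476 without epileptic 5 (-6.67) or 8 (-6.62), of -1.94 to -1.35 in percent mapped to several places, of -0.00941 to -0.00372 in the strand sum over the unstranded count, lowest without epileptic 8, and of 1578 to 2182 genes detected. The causes were not tested. No paired analysis was possible because the groups share no replicate number.

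Some genes with small fold changes turned sign. Glul reached -0.023 with voom, -0.010 with the percent unmapped, -0.031 with length and GC content out and -0.015 in the 11 libraries with sex, and ranged from -0.025 to 0.048 as each library was left out. Ctss reached 0.12 with the percent unmapped, 0.19 with length and GC content out, and 0.33 and 0.0019 in the 11 libraries with the percent unmapped and with sex. B2m reached 0.13, 0.42, 0.42 and 0.040 under the same 4 alternatives. Leaving out each library took Ctss from -0.31 to 0.096, B2m from -0.35 to 0.14, Mbp from -0.18 to 0.011 and Ttr from -0.054 to 0.75, and Ttr reached -0.20 without the libraries with both Xist and Y-linked reads. With length and GC content out Fam183b reached 0.071, Jun -0.10, Slc12a5 -0.021 and mt-Nd1 0.19, and with the percent unmapped mt-Co1 reached -0.046 and Kcna1 0.44. For the other named genes and settings the direction was kept, although 1237 of the values no longer passed. Of the list medians, 939 moved by less than the spread between libraries and 27 by more.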
